A study of Mus musculus with 24 samples.

Results

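The genes described here are 40 markers of dividing cells, chosen by name as genes of DNA replication and mitosis, and all 40 were found among the 21441 genes of each deposited table. Poly(A) RNA of wild-type C57BL6J mice was sequenced from 3 segments of the gut, duodenum, ileum and colon. The calcitriol mice received 3 injections of calcitriol, the active hormone made from vitamin D, at 1 ng per g body weight, 48, 24 and 6 h before the end of the experiment. The vitamin D-deficient mice have no treatment in their labels. Males and females were in both groups, and the labels give ages between 10 and 14 without a unit. The values used here cover 4 calcitriol and 4 deficient libraries of the duodenum, likewise of the colon, and 4 calcitriol and 3 deficient libraries of the ileum. The study asked which genes of the proximal and distal intestine respond to the vitamin D receptor, and the comparison described here asks whether genes of cell division were among them.

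The intestinal lining is renewed without pause by cells that divide in the crypts and stop dividing as they move onto the villus or the surface. Before DNA is copied, the Mcm2 to Mcm7 helicase is loaded onto it by Cdc6 and Cdt1, and Pcna, the sliding clamp, then holds the polymerases on the template. Cyclin E starts this S phase, cyclin A carries it through, and cyclin B with Cdk1 drives mitosis, in which Plk1 and the aurora kinases order the spindle. Genes of the first step are classically switched on by E2F factors, and genes of mitosis by a complex of MuvB, B-Myb and Foxm1 that binds a CHR element, often near CCAAT boxes that bind NF-Y. Calcitriol is known as a brake on the proliferation of many cultured cell types.

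The promoters of the licensing and mitosis genes differed in E2F and CHR letters and little in CCAAT. A promoter was matched in the RefSeq sequences of build GRCm38.p6 for 33 of the 40 genes, with 250 bases before and 50 after the start. None was matched for the mitosis genes Ccna2 (cyclin A), Foxm1, Aurkb, Kif20a and Tpx2, nor for Mcm4 and Ccne2, so these are not in the counts below. On either strand, E2F was searched as TTTCCCGC, TTTCGCGC, TTTGCCGC or TTTGGCGC, CHR as TTTGAA or TTCGAA, and the CCAAT box as CCAAT. Where a gene has several starts, a match in any of them counted. E2F letters were present in 6 of 8 promoters of the licensing and replication fork genes and in 1 of 15 of the mitosis genes (cyclins A and B, Cdk1, Foxm1, mitotic kinases, checkpoint and spindle), against 2.6% of the 27025 genes with a promoter. CHR letters were in 2 of 8 and 11 of 15, against 21.7% of all genes, and CCAAT in 6 of 8 and 13 of 15, against 41.1%. E2F letters were in 0 of 4 promoters of the nucleotide supply genes and 0 of 2 of those for S phase entry. A match of a motif overlapped one of another motif in 1 place, in Mcm7. Below are Mcm5 (chr8:75109259-75109558, plus strand) and Mcm6 (chr1:128359656-128359955, minus strand), helicase subunits with E2F letters. Plk1 (chr7:122159185-122159484, plus strand) and Cdc20 (chr4:118437294-118437593, minus strand), mitotic genes with CHR letters, follow them. Capitals mark the matches, those on the other strand by their complement (ATTGG for CCAAT), and neighbouring matches run together. The sequences are shown because the median levels of these gene groups differed in the calcitriol library 3xD5720. Mcm5 did not follow its group in that library. Its deviation in log2, as defined below, was 0.13 in the duodenum and 0.48 in the ileum. These were the highest values among the licensing and replication fork genes, whose medians were -0.08 and 0.05.
Mcm5: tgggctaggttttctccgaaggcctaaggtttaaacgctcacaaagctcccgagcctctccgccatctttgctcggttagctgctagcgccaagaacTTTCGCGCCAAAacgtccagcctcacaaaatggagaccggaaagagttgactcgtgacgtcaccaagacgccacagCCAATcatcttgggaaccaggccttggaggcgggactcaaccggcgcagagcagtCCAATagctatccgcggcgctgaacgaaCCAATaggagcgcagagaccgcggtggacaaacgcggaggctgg
Mcm6: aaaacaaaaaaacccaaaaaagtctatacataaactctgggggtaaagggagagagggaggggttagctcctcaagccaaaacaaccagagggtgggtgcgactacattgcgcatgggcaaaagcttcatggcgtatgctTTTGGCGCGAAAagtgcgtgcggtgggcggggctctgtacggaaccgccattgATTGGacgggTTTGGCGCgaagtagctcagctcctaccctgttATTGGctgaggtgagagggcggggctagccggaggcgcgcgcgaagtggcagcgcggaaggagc
Plk1: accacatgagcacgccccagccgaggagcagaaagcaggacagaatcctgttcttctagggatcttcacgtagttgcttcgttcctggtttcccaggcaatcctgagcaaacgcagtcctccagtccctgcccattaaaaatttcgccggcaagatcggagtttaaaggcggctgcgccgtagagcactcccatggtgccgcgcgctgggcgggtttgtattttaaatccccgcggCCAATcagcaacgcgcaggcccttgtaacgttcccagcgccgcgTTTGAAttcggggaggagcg
Cdc20: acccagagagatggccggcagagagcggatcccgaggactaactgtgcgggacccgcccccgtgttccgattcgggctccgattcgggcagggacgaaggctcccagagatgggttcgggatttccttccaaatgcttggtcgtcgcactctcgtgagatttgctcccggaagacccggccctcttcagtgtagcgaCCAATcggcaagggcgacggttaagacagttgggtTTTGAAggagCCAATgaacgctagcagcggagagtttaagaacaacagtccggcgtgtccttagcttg
A match is a string of letters and not a measured binding site, and binding was not measured in this study.

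Libraries are called by the names of their columns. Serial names (3xD_1 in the calcitriol group, Vehicle_1, Vehicle_2 and Vehicle_3 in the deficient group) and 4-digit names (3xD5711, 3xD5720 and 3xD5734, and minusD5718 in the deficient group, not used in the ileum) almost follow treatment. The labels do not use the word Vehicle, and these columns were taken as deficient mice. Differences inside a naming scheme are therefore given beside those over all libraries. On 1 side each rests on a single library, calcitriol 3xD_1 in the serial scheme and deficient minusD5718 in the 4-digit scheme. Depth followed the scheme in every tissue. With treatment in the fit, the 4-digit libraries were above the serial ones for 8 of 39 genes in the duodenum (51% of all genes) and for 6 of 40 in the colon (50.5%). In the ileum, where the 4-digit libraries are all calcitriol, this term compares them with 3xD_1 alone, the only serial calcitriol library. Its median was positive there, at 0.44, where the median of 4-digit minus serial was -0.15 in the duodenum and -0.26 in the colon. Reads recovered from the deposited values, for 82.3% to 82.4% of genes, came to 11860481 to 13264220 per library in 4-digit and 17172781 to 27584790 in serial libraries of the duodenum, to 11772071 to 14471003 and 17985144 to 29966784 in the ileum, and to 11860336 to 14372340 and 21748866 to 23541427 in the colon. Of the 40 genes, 29 had recovered reads, with medians per library of 517 to 655 by tissue. The deposited values are FPKM, reads scaled by transcript length and library depth. Epcam, an epithelial adhesion gene, stood at 785 to 1575 FPKM over all libraries and the crypt stem cell gene Lgr5 at 0.942 to 5.36. Alpi, an alkaline phosphatase of villus enterocytes, stood at 816 to 2201 FPKM in the duodenum and 10.8 to 33 in the colon. Acta2, a smooth muscle actin, reached 557 FPKM in the colon. The labels do not say whether these libraries were made from whole tissue or from its epithelium. In such bulk samples, fewer dividing cells and less RNA per dividing cell cannot be told apart.

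A pair of libraries stood apart in the division genes. Deficient Vehicle_3 and calcitriol 3xD5720 had the highest median level of the 40 genes in each of the 3 tissues, in opposite treatment groups. In the duodenum 3xD5720 led calcitriol 3xD_1 only slightly, with median deviations of 0.15 and 0.12 in log2, as defined below. The medians are therefore also given without them, as are genes with high values in them.

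None of the 40 genes was called as changed by calcitriol in any tissue. With limma on log2(FPKM + 1), 0 of 39 tested genes passed at an adjusted p under 0.05 in the duodenum, where 3 of 11734 genes passed in all (0.0256%). In the ileum it was 0 of 40, as of all 12149 genes (0%), and in the colon 0 of 40, as of all 12746 (0%). By limma voom on the recovered reads it was also 0 in each tissue. At an unadjusted p under 0.05, 1 gene was higher (background 4.03%) and 0 lower (5.37%) in the duodenum, 0 higher (3.09%) and 2 lower (2.74%) in the ileum, and 0 higher (2.92%) and 0 lower (2.93%) in the colon. The smallest adjusted p among the genes was 0.526 in the duodenum, 0.706 in the ileum and 0.885 in the colon. None of the tested genes had calcitriol and deficient libraries without overlap, where 1.99% of all genes did so upward and 2.38% downward in the duodenum. The ileum had 3.35% upward and 3.21% downward, and the colon 2.22% upward and 2.32% downward. The test rests on 3 or 4 libraries a group, and a p above the threshold does not show that the genes did not respond.

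The differences were small, and in the ileum and colon the direction of their median turned with single libraries. The median log2 difference, calcitriol minus deficient, was 0.07 in the duodenum, 0.07 in the ileum and -0.15 in the colon, against 0.01, 0.01 and -0.01 over all tested genes. It was positive for 27 of 39 genes in the duodenum (51.9% of all genes), 22 of 40 in the ileum (51.7%) and 6 of 40 in the colon (47.3%). Without deficient Vehicle_3, 33 of 40 colon genes were positive, with a median of 0.17, and without calcitriol 3xD5720 it was 3 of 40, with -0.26. In the duodenum 30 of 39 were positive without Vehicle_3, with a median of 0.16, 5 genes at an unadjusted p under 0.05 and a smallest adjusted p of 0.141 by limma. Without both, the colon median was 0.05 with 23 of the 39 genes still tested positive, the ileum median 0.09 with 25 of 40 and the duodenum median 0.14 with 29 of 39. In the ileum the median was 0.21 without Vehicle_3 and -0.06 without 3xD5720. The duodenal median stayed positive with each library left out in turn, at 0.01 to 0.16, where all genes had 0.01. Within the naming schemes the median was 0.10 in serial and 0.13 in 4-digit libraries of the duodenum, and -0.32 and 0.33 in the colon. In the ileum it was -0.21 in the serial libraries, the only scheme there with both groups. The calcitriol side of the serial values is 3xD_1 alone, and the deficient side of the 4-digit values minusD5718 alone. With the scheme in the fit, the median was 0.14 in the duodenum, with 32 of 39 positive (51.3% of all genes), and 0.03 in the colon, with 22 of 40 positive (49.4%). The standard error of a gene's difference had a median of 0.17, 0.23 and 0.34 in the 3 tissues, against 0.15, 0.18 and 0.17 over all genes. It reflects the spread between libraries of a group, which for the division genes was widest in the colon.

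**Figure D1:**
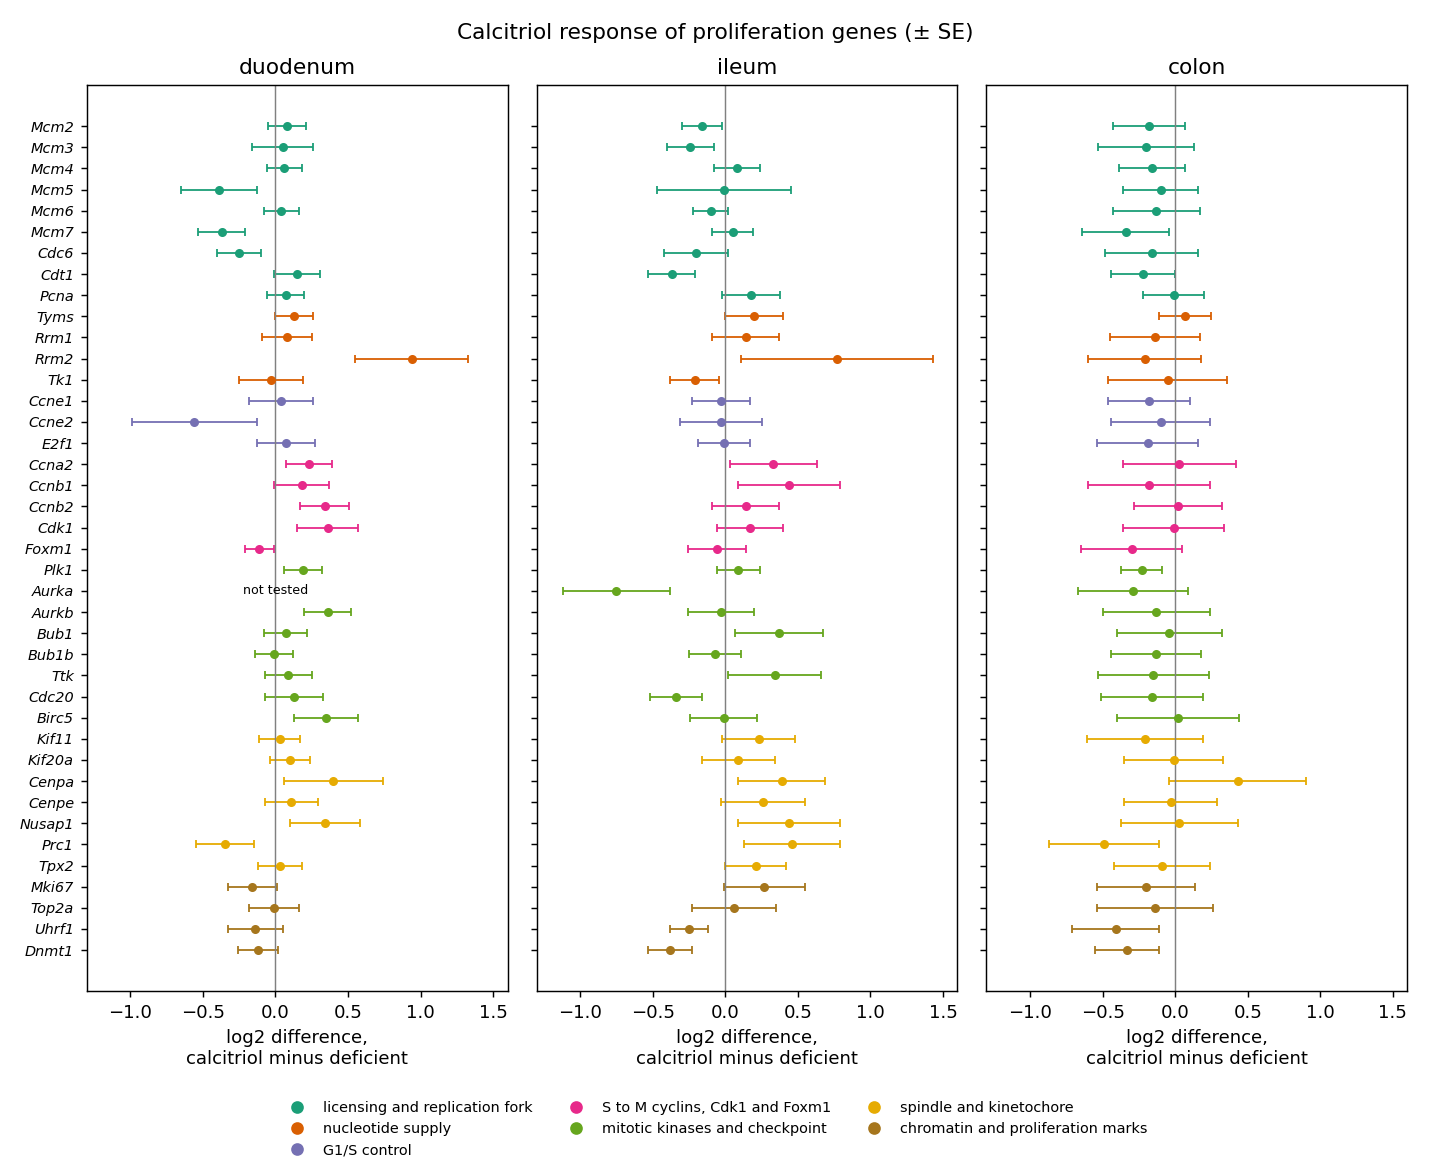
Log2 difference of each of the 40 genes, calcitriol minus deficient, with its standard error (horizontal axis), in the duodenum, ileum and colon, grouped by colour into 7 roles. Most intervals of 1 standard error cross or come near 0, Rrm2 lies farthest to the right in the duodenum (0.94) and ileum (0.77), and Aurka was under the expression filter in the duodenum.

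Among the 9 licensing and replication fork genes, 6 differences were positive in the duodenum, 3 in the ileum and 0 in the colon, and none passed the test. Mcm2, a helicase subunit (chromosome 6, 88833469 to 88848774, NCBIM37), stood at 6.59, 6.29, 6.27 and 7.26 FPKM in calcitriol duodenum and at 4.73, 5.94, 6.91 and 7.35 in deficient duodenum. In the ileum it was at 8.34, 9.49, 7.79 and 8.88 in calcitriol and 8.02, 10.1 and 11.2 in deficient libraries. In the colon it was at 11.2, 12.2, 8.19 and 8.74 in calcitriol and 7.1, 12.8, 10.4 and 17.5 in deficient libraries, where the deficient libraries hold both the lowest and the highest value. Its log2 difference was 0.08 ± 0.13, -0.16 ± 0.14 and -0.18 ± 0.25 (SE) in the 3 tissues.

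Mcm7, another helicase subunit, stood at 7.93, 9.84, 6.63 and 6.33 FPKM in calcitriol duodenum and at 7.72, 11, 11.4 and 10.5 in deficient duodenum. Of the 40 genes, Rrm2 alone had a smaller p there (Mcm7 log2 -0.37 ± 0.16, adjusted p = 0.528 by limma). The difference was -0.42 within the serial libraries and -0.04 within the 4-digit ones, and in the ileum it was 0.05 ± 0.14. Cdt1, the helicase loader, stood at 11.4, 10.1, 8.07 and 10 FPKM in calcitriol ileum and at 10.7, 14.8 and 13.7 in deficient ileum. The groups overlapped there by 1 library each (log2 -0.37 ± 0.16, adjusted p = 0.706 by limma), and in the duodenum the difference was 0.15 ± 0.16. Mcm7 overlaps Cops6 and Ap4m1 on the other strand and Cdt1 a gene model on its own strand. Whether counting used strand is not stated, so the reads of these genes, and of 10 others of the 40 that overlap an annotated gene, are uncertain.

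Pcna, the clamp, was the highest of the 40 genes in every tissue. It stood at 134, 122, 110 and 143 FPKM in calcitriol duodenum and at 119, 107, 120 and 141 in deficient duodenum, groups that covered nearly the same range. The ileum held 110, 131, 128 and 108 in its calcitriol and 92.1, 84.8 and 147 in its deficient libraries, and the colon 153, 129, 124 and 104 in calcitriol and 104, 115, 112 and 195 in deficient libraries. The value of 195 is Vehicle_3, and the log2 difference was 0.07 ± 0.13, 0.18 ± 0.20 and -0.01 ± 0.21. Pseudogenes named Pcna-ps1 and Pcna-ps2 are annotated, so some of its reads may be uncertain.

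Of the 4 genes that supply nucleotides, 3 differences were positive in the duodenum, 3 in the ileum and 1 in the colon. Rrm2, the regulated subunit of ribonucleotide reductase, which makes deoxyribonucleotides (chromosome 12, 25393106 to 25399011, NCBIM37), was the 1 gene with an unadjusted p under 0.05 in the duodenum. It stood at 18.4, 32.6, 86.6 and 31.5 FPKM in calcitriol duodenum and at 18.1, 23.1, 15.3 and 17.4 in deficient duodenum. Calcitriol libraries had 7.83, 11.5, 65.6 and 9.88 in the ileum, against 7.05, 7.08 and 13.6 in deficient ileum, and 8.41, 6.7, 14.6 and 7.05 in the colon, against 8.42, 7.63, 6.84 and 24.8 in deficient colon. The calcitriol values of 86.6, 65.6 and 14.6 all come from 3xD5720, and the deficient 24.8 from Vehicle_3. The log2 difference was 0.94 ± 0.39 in the duodenum (adjusted p = 0.526 by limma), 0.77 ± 0.66 in the ileum and -0.21 ± 0.39 in the colon. Among duodenal libraries of serial name it was 0.00, and among those of 4-digit name 1.26. Without 3xD5720 it was 0.52 ± 0.22 in the duodenum and 0.11 ± 0.26 in the ileum.

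Rrm1, the large subunit of the same enzyme, stood at 12.1 ± 2.05 FPKM in calcitriol and 11.5 ± 2.87 in deficient duodenum (SD, n = 4 each), a log2 difference of 0.08 ± 0.17. In 3xD5720 it was at 13.9, 27.5 and 23.6 FPKM in the duodenum, ileum and colon, and in Vehicle_3 at 15.8, 19.5 and 39.2, each the highest value of its group. Tyms, the thymidylate synthase, stood at 12.8, 10.4, 13 and 11.9 FPKM in calcitriol duodenum and at 11, 9.15, 10.1 and 13.6 in deficient duodenum. Ileal values were 11.9, 12.5, 16.6 and 13.4 in calcitriol and 10.2, 9.56 and 15.9 in deficient libraries, and those of the colon 22.1, 16, 18.3 and 14.3 in calcitriol and 16, 14.7, 14.2 and 22.7 in deficient libraries. Its log2 difference was 0.13 ± 0.13, 0.20 ± 0.20 and 0.07 ± 0.18, and the groups overlapped in every tissue.

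The 3 genes of the entry into S phase are expressed at a few FPKM. Ccne1, a cyclin E, stood at 2.63, 2.13, 2.16 and 2.79 FPKM in calcitriol duodenum and at 1.53, 1.78, 2.38 and 4.19 in deficient duodenum. The ileum held 3.43, 3.43, 3.89 and 3.15 in its calcitriol and 2.62, 3.1 and 5.38 in its deficient libraries, and the colon 3.57, 3.44, 3.48 and 3.12 in calcitriol and 2.25, 3.91, 3.17 and 8.29 in deficient libraries. The deficient libraries spread on both sides of the calcitriol ones in every tissue, with Vehicle_3 highest. Ccne2, the other cyclin E, was listed at 0 in 3xD5720 and 3xD5734 of the calcitriol duodenum and at 1 and 3.37 FPKM in the other calcitriol libraries, against 1.35 to 1.85 in the deficient ones.

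Cyclins A and B and Cdk1 were high in the same pair of libraries. Ccna2, cyclin A, stood at 16.5, 13.6, 20.2 and 15.3 FPKM in calcitriol duodenum and at 14.2, 12, 11.7 and 17.2 in deficient duodenum. Calcitriol libraries had 16.8, 20.8, 41.3 and 21.5 in the ileum, against 17.5, 15.4 and 24.1 in deficient ileum, and 17.6, 17.5, 36 and 17.3 in the colon, against 17.3, 13.9, 15.4 and 47.3 in deficient colon. In the colon 6 of 8 libraries thus lay between 13.9 and 17.6 FPKM, with 3xD5720 at 36 and Vehicle_3 at 47.3. The log2 difference was 0.23 ± 0.16, 0.33 ± 0.30 and 0.03 ± 0.39. Without 3xD5720 it was 0.07 in the ileum and -0.22 in the colon, and without Vehicle_3 0.42 in the colon.

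Ccnb1, cyclin B, stood at 11.6, 8.56, 16.2 and 10 FPKM in calcitriol duodenum and at 9.07, 9.29, 8.62 and 12.8 in deficient duodenum. Ileal values were 11, 13.5, 32.6 and 16.4 in calcitriol and 11.2, 9.69 and 16.5 in deficient libraries, and those of the colon 9.08, 10.5, 24.2 and 12.4 in calcitriol and 11.7, 10.1, 11.2 and 36.5 in deficient libraries. The calcitriol maximum was 3xD5720 and the deficient maximum Vehicle_3 in each tissue, and the log2 difference was 0.18 ± 0.19, 0.44 ± 0.35 and -0.18 ± 0.42. Without 3xD5720 it was 0.14 in the ileum and -0.46 in the colon, and without Vehicle_3 0.23 in the colon. Its partner Cdk1 stood at 11.7, 8.29, 14.1 and 12.9 FPKM in calcitriol duodenum and at 8.4, 7.24, 7.43 and 13.1 in deficient duodenum. The ileum held 10.4, 13.2, 18.9 and 12.6 in its calcitriol and 10.2, 9.97 and 16.3 in its deficient libraries, and the colon 13, 10.3, 18.3 and 10.2 in calcitriol and 10.5, 8.78, 9.74 and 28.4 in deficient libraries. The same libraries were highest, and the log2 difference of Cdk1 was 0.36 ± 0.21, 0.17 ± 0.23 and -0.01 ± 0.35.

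**Figure D2:**
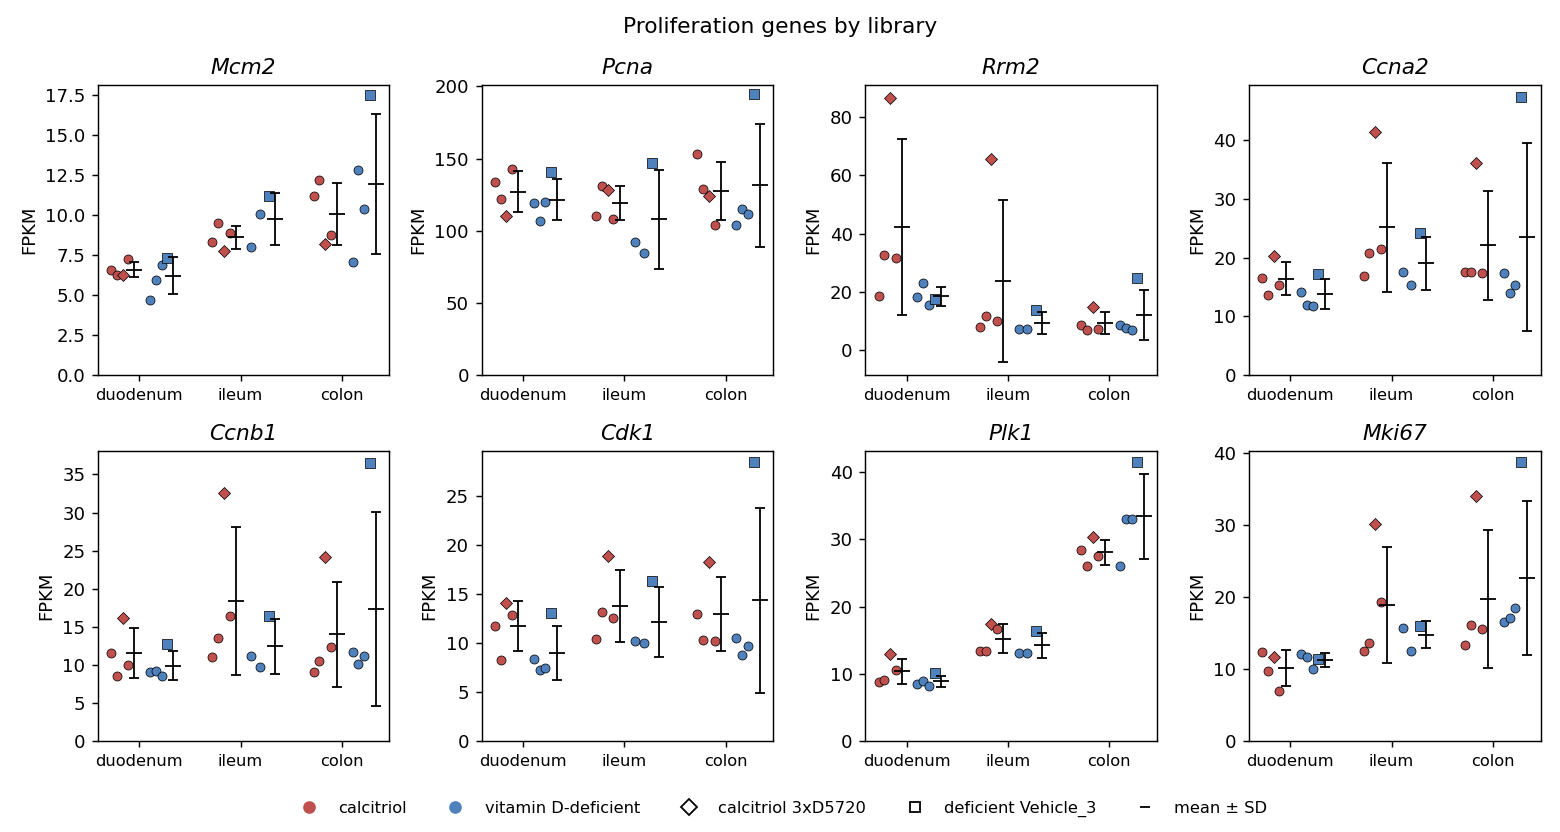
FPKM (vertical axes, linear) of 8 genes in every library of the duodenum, ileum and colon, calcitriol left of deficient in each tissue, with mean and SD; the calcitriol library 3xD5720 is a diamond and the deficient library Vehicle_3 a square. Mcm2 and Pcna show no high diamond, while Ccna2, Ccnb1 and Mki67 show the diamond above the other calcitriol libraries in the ileum and colon and the square above the other deficient libraries in the colon.

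Of the 8 mitotic kinase and checkpoint genes, 6 of 7 tested differences were positive in the duodenum, 3 of 8 in the ileum and 1 of 8 in the colon. Plk1, a kinase of mitotic entry and spindle assembly (chromosome 7, 129302951 to 129313389, NCBIM37), stood at 8.79, 9.15, 13 and 10.6 FPKM in calcitriol duodenum and at 8.49, 8.93, 8.27 and 10.1 in deficient duodenum. Calcitriol libraries had 13.5, 13.4, 17.5 and 16.7 in the ileum, against 13.2, 13.2 and 16.4 in deficient ileum, and 28.4, 26, 30.4 and 27.6 in the colon, against 26.1, 33, 33.1 and 41.5 in deficient colon. It had the smallest p of the 40 genes in the colon, a log2 difference of -0.23 ± 0.14 (adjusted p = 0.885 by limma; -0.12 ± 0.12 without Vehicle_3). In the duodenum it was 0.19 ± 0.13 and in the ileum 0.09 ± 0.15.

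Aurkb, the kinase of the chromosomal passenger complex, stood at 8.36, 6.5, 7.82 and 9.63 FPKM in calcitriol duodenum and at 4.8, 5.8, 5.78 and 8.06 in deficient duodenum. Of the deficient libraries, Vehicle_3 alone reached the calcitriol range (log2 0.36 ± 0.16, adjusted p = 0.528 by limma; 0.32 serial, 0.62 4-digit). Ileal values were 7.35, 9.25, 12.4 and 9.57 in calcitriol and 7.75, 8.54 and 13.7 in deficient libraries, and those of the colon 8.15, 5.63, 14.2 and 6.94 in calcitriol and 6.87, 6.36, 7.86 and 19.7 in deficient libraries. Birc5, a partner of Aurkb, stood at 39.6 ± 8.12 FPKM in calcitriol and 31.2 ± 9.84 in deficient duodenum (SD, n = 4 each), a log2 difference of 0.35 ± 0.22.

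Aurka, the centrosome kinase, lay under the filter in the duodenum, which asked for 1 FPKM in 3 libraries, and was not tested there. It stood at 0.434, 0.546, 0.528 and 0.676 FPKM in calcitriol duodenum and at 0.733, 0.746, 0.977 and 0.919 in deficient duodenum, without overlap. The ileum held 1.41, 0, 0.56 and 1.82 in its calcitriol and 2.39, 1.21 and 2.73 in its deficient libraries, and the colon 0.84, 0.554, 0.565 and 1.1 in calcitriol and 0, 1.23, 1.2 and 3.26 in deficient libraries. Its values of 0 are listed values of single libraries, 3xD5711 in the ileum and minusD5718 in the colon. The ileal difference was -0.75 ± 0.37 (adjusted p = 0.706 by limma; -0.33 within the serial libraries).

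Among the 7 spindle and kinetochore genes, 6 differences were positive in the duodenum, 7 in the ileum and 2 in the colon. Kif11, the motor that pushes spindle poles apart, stood at 8.06, 6.03, 7.97 and 5.79 FPKM in calcitriol duodenum and at 6.87, 5.78, 6.6 and 7.8 in deficient duodenum. Calcitriol libraries had 7.43, 8.97, 16.9 and 10.7 in the ileum, against 9.29, 7.38 and 9.92 in deficient ileum, and 5.72, 8, 17.3 and 8 in the colon, against 8.44, 7.49, 8.17 and 23 in deficient colon. The high calcitriol values of the ileum and colon are 3xD5720, and the deficient 23 is Vehicle_3. Prc1, which bundles the microtubules of the central spindle, stood at 2.46, 1.53, 1.54 and 3.31 FPKM in calcitriol duodenum and at 2.52, 3.81, 2.47 and 3.31 in deficient duodenum. Ileal values were 3.1, 3.72, 10.1 and 7.02 in calcitriol and 3.31, 3.55 and 4.25 in deficient libraries, and those of the colon 2.73, 3.82, 5.7 and 2.07 in calcitriol and 2.98, 3.61, 5.1 and 11.8 in deficient libraries. Its log2 difference was -0.35 ± 0.20, 0.46 ± 0.33 and -0.49 ± 0.38, and it overlaps a gene on the other strand.

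Of the remaining 4 genes, chromatin factors and marks of dividing cells, 0 differences were positive in the duodenum, 2 in the ileum and 0 in the colon. Mki67, the gene of the Ki-67 antigen by which dividing cells are stained (chromosome 7, 142881471 to 142908062, NCBIM37), stood at 12.4, 9.69, 11.7 and 6.92 FPKM in calcitriol duodenum and at 12.1, 11.7, 9.97 and 11.4 in deficient duodenum. The ileum held 12.6, 13.6, 30.2 and 19.3 in its calcitriol and 15.7, 12.6 and 16 in its deficient libraries, and the colon 13.3, 16.2, 34 and 15.6 in calcitriol and 16.6, 17.1, 18.5 and 38.7 in deficient libraries. In the colon 3 calcitriol libraries lay below every deficient one, and 3xD5720 lay above 3 of the 4. The log2 difference was -0.16 ± 0.17, 0.27 ± 0.28 and -0.20 ± 0.34, and in the colon 0.08 ± 0.29 without Vehicle_3 and -0.48 ± 0.28 without 3xD5720.

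Dnmt1, which copies DNA methylation onto new strands, stood at 6.23, 6.03, 6.45 and 7.67 FPKM in calcitriol ileum and at 7.38, 10.1 and 9.32 in deficient ileum. It had the smallest p of the genes there, with 1 calcitriol library within the deficient range (log2 -0.38 ± 0.15, adjusted p = 0.706 by limma; -0.45 serial). In the duodenum it was at 6.12, 5.54, 4.59 and 5.75 in calcitriol and 4.72, 7.03, 6.72 and 5.87 in deficient libraries. Colonic values were 7.93, 10.2, 9.45 and 8.65 in calcitriol and 7.06, 14, 10.9 and 16.2 in deficient libraries. Its partner Uhrf1, which brings Dnmt1 to replicating DNA, stood at 9.21, 7.81, 6.67 and 5.19 FPKM in calcitriol colon and at 5.44, 10.1, 9.11 and 17.5 in deficient colon. Duodenal values were 6.82, 4.41, 3.92 and 4.96 in calcitriol and 4.03, 5.12, 6.5 and 6.89 in deficient libraries, and ileal ones 7.26, 8.37, 8.24 and 7.51 in calcitriol and 8.27, 9.83 and 10.6 in deficient libraries, so the groups overlapped. The log2 differences were -0.12 ± 0.14, -0.38 ± 0.15 and -0.33 ± 0.22 for Dnmt1. For Uhrf1 they were -0.14 ± 0.19, -0.25 ± 0.13 and -0.41 ± 0.30. They were negative in all 3 tissues for both. Within the 4-digit libraries of the duodenum and colon they were 0.13 and 0.37 for Dnmt1 and 0.11 and 0.22 for Uhrf1. The deficient side of these 4-digit differences is the library minusD5718 alone.

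The response to calcitriol was not shown to differ between tissues for any gene. Of 39 genes tested in a joint fit of the 23 libraries, 0 were called for any pair of tissues, as 0 of all 11234 genes were (0%). The smallest unadjusted p was that of Plk1, whose response was higher in the duodenum than in the colon by 0.41 ± 0.19 (adjusted p = 1 by limma), where 0.863% of all genes had such a p upward. For Prc1 the ileal response exceeded the colonic one by 0.95 ± 0.49 (adjusted p = 0.963 by limma), and for Cdt1 the duodenal response exceeded the ileal one by 0.52 ± 0.28 (adjusted p = 0.825 by limma). The median over the 39 genes was 0.21 for duodenum minus colon, 0.18 for ileum minus colon and -0.01 for duodenum minus ileum, against 0.02, 0.03 and -0.01 over all genes. For Rrm2 the duodenal response exceeded the colonic one by 1.15 ± 0.75.

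Across libraries the genes varied together. Each gene's deviation was taken from the mean of the 2 group means in its tissue, on log2(FPKM + 1), and these values are a description with no test. Every library enters that mean, so where Vehicle_3 and 3xD5720 are high the others are placed lower against it. Calcitriol 3xD5720 lay above that mean for 25 of 39 genes in the duodenum, 33 of 40 in the ileum and 27 of 40 in the colon, with medians of 0.15, 0.38 and 0.40. Deficient Vehicle_3 lay above it for 37 of 39, 37 of 40 and 40 of 40 genes, with medians of 0.24, 0.22 and 0.98. Over all tested genes, these libraries lay above the mean for 50.7% to 52% of genes. In the duodenum calcitriol 3xD_1 came close to 3xD5720, above the mean for 30 of 39 genes (49.8% of all genes), with a median of 0.12. At the other end, minusD5718 of the deficient colon lay above for 0 of 40 genes (median -0.37), 3xD5734 of the calcitriol colon for 3 of 40 (-0.28), 3xD_1 of the calcitriol ileum for 2 of 40 (-0.28) and Vehicle_1 of the deficient ileum for 2 of 40 (-0.21). Over all tested genes these libraries lay above the mean for 49.6% to 51.9%. In the colon 38 of the 40 genes had their highest value in Vehicle_3, as 13.5% of all genes did. In the ileum 24 of the 40 had it in 3xD5720, as 27.1% of all genes did. The summed FPKM of the tested genes was 741 in 3xD5720 of the colon and 467 to 594 in the other calcitriol libraries, against 1124 in Vehicle_3 and 446 to 525 in the other deficient ones. The labels do not say whether columns of the same name in different tissues come from the same mouse.

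**Figure D3:**
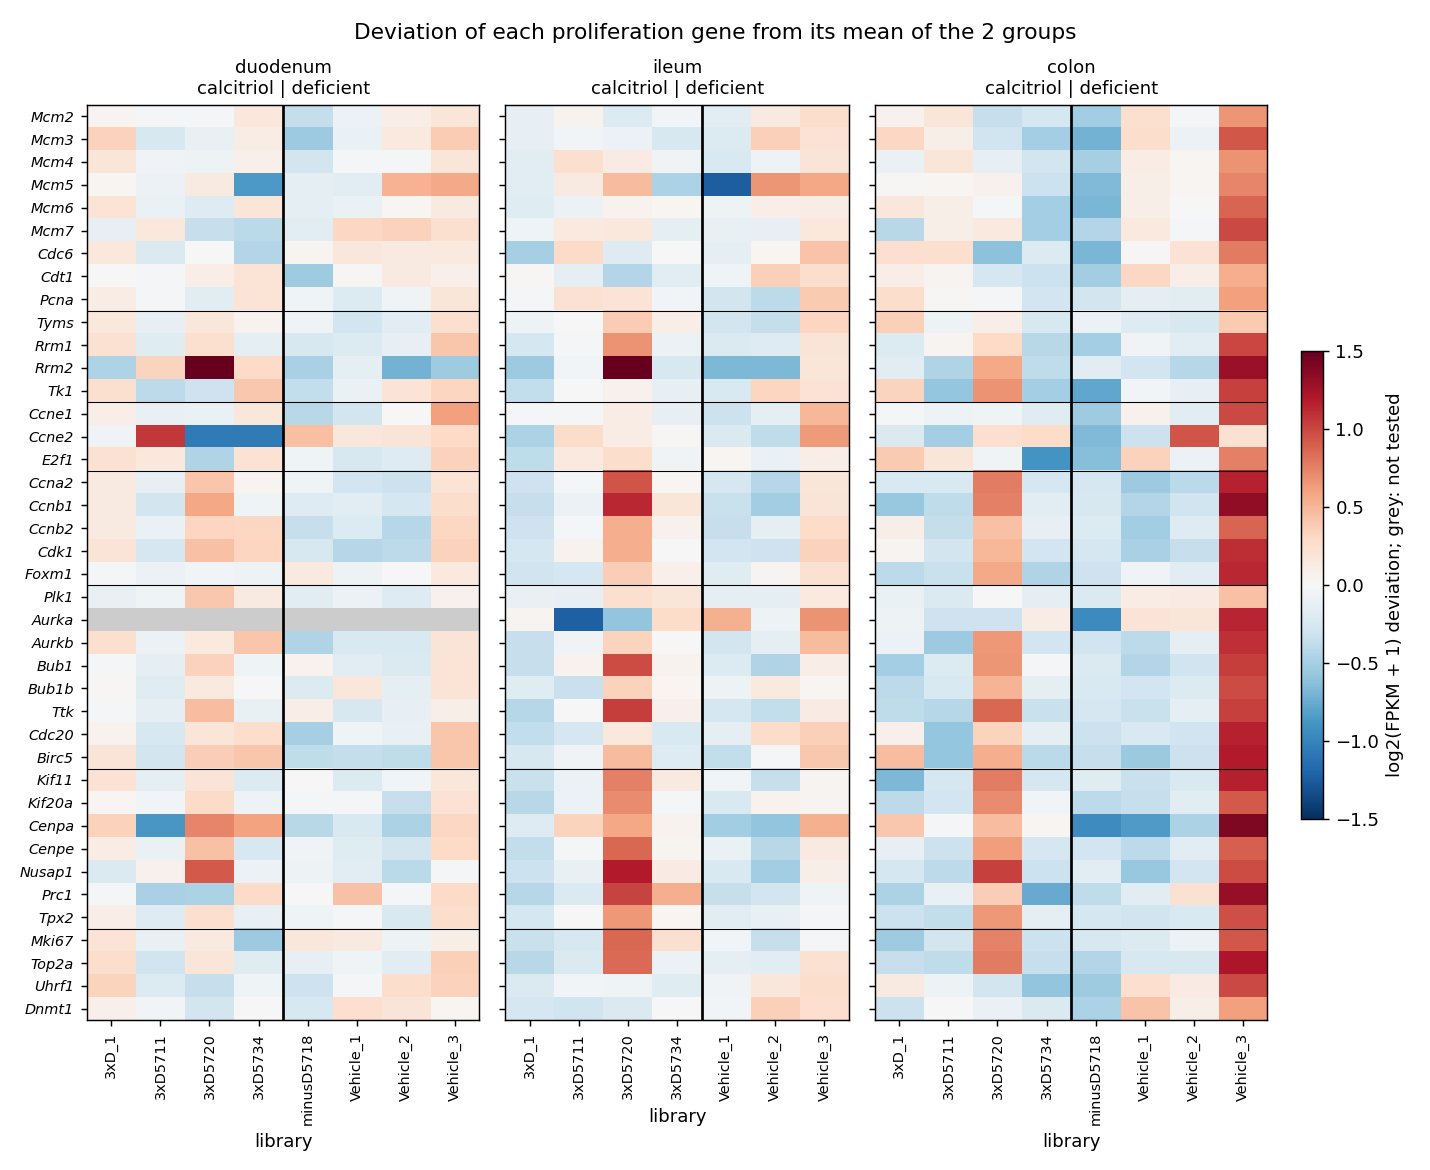
Deviation of each gene (rows, ordered by role) in each library (columns, calcitriol left of the black line and deficient right of it) from the mean of the 2 group means, on log2(FPKM + 1), red above and blue below. The column of Vehicle_3 in the colon is red throughout, above the mean for 40 of 40 genes, while 3xD5720 is red in most rows of the mitosis genes (Prc1 in the duodenum and Aurka in the ileum are blue) and mixed in those of the helicase subunits, from -0.341 for Mcm2 in the colon to 0.478 for Mcm5 in the ileum.

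The libraries that stood apart did so in different ways. In deficient Vehicle_3 replication and mitosis genes were high together. The 9 licensing and replication fork genes had medians of 0.18, 0.26 and 0.74 in the duodenum, ileum and colon, with 9 of 9 above the mean each time, and the mitosis genes 0.21, 0.17 and 1.10, with 18 of 19, 18 of 20 and 20 of 20 above it. In calcitriol 3xD5720 the mitosis genes were mostly high and the licensing genes mixed. There the licensing genes had medians of -0.08, 0.05 and -0.13, with 3, 5 and 2 of 9 above the mean, and the mitosis genes 0.35, 0.62 and 0.60, with 17 of 19, 19 of 20 and 18 of 20 above it.

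The nucleotide supply genes went with the mitosis genes in 3xD5720, with medians of 0.21, 0.53 and 0.43 and 3, 4 and 4 of 4 above the mean. Further genes of the same processes, which are not among the 40, differed less. In 3xD5720, other DNA replication genes such as polymerase and clamp loader subunits had medians of 0.04, 0.17 and 0.11, with 21 of 32, 23 of 34 and 20 of 34 above the mean. Other mitotic genes had 0.22, 0.50 and 0.53, with 32 of 35, 31 of 36 and 35 of 36 above it. In Vehicle_3 the other replication genes had 0.22, 0.18 and 0.64 and the other mitotic genes 0.22, 0.20 and 0.93. A link between these levels and the E2F or CHR letters was not tested. Other single libraries held the groups apart the other way. In 3xD5711 of the calcitriol colon 9 of 9 licensing genes lay above the mean and 0 of 20 mitosis genes did, with medians of 0.09 and -0.32. In Vehicle_1 of the deficient colon it was 8 of 9 and 2 of 20, with medians of 0.11 and -0.37, a wider gap than that of 3xD5720 in the duodenum. The colon means of the mitosis genes take in the high values of Vehicle_3 and 3xD5720, which places the other libraries below them. How much of these gaps comes from that was not tested.

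**Figure D4:**
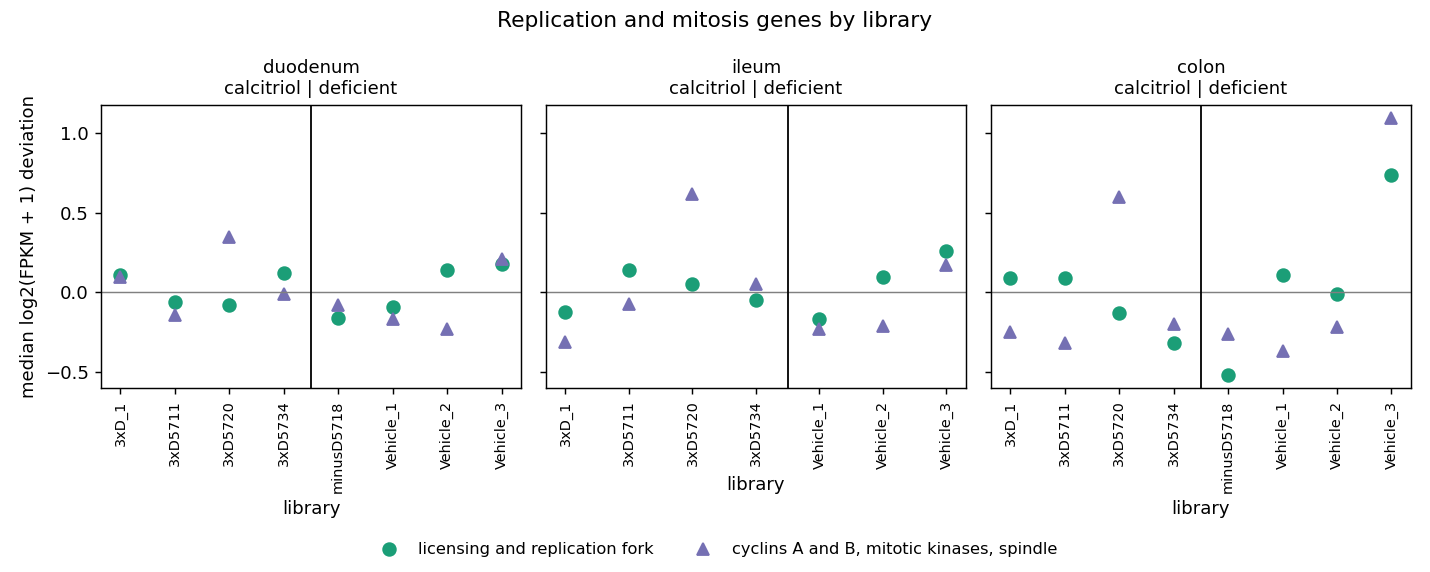
Median deviation of the 9 licensing and replication fork genes (circles) and of the genes of cyclins A and B, mitotic kinases and the spindle (triangles) in each library, calcitriol left of the line and deficient right of it, on log2(FPKM + 1). In 3xD5720 the triangle lies above the circle in all 3 tissues (0.60 against -0.13 in the colon), while in Vehicle_3 both are high, most in the colon (1.10 and 0.74).

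Some markers of other cells also set these libraries apart, not all of them in every tissue. In 3xD5720 the summed FPKM of 9 T cell markers was 19.7 in the duodenum, 14.5 in the ileum and 10.6 in the colon, in each tissue the lowest of the calcitriol range (up to 59.2, 55.4 and 30.8), against deficient ranges of 47 to 90.9, 24.3 to 70.1 and 15.8 to 25.7. Vehicle_3 held 90.9 and 70.1, the highest of the deficient range in the duodenum and ileum, and 21.6 in the colon. The defining T cell gene Cd3e was at 0.85 to 6.77 FPKM in calcitriol and 1.36 to 10.9 in deficient libraries. B cell markers summed to 3.95, 11 and 13 FPKM in 3xD5720 and to 48.4, 81.3 and 28.3 in Vehicle_3, in the order of the tissues above. The range of that sum was 3.95 to 43.1 in calcitriol and 30.6 to 48.4 in deficient duodenum, 11 to 139 in calcitriol and 9.15 to 93 in deficient ileum, and 7.61 to 23.9 in calcitriol and 18.9 to 31.5 in deficient colon. Dividing lymphocytes express the same division genes, and the part of these cells in the result was not tested.

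Smooth muscle markers summed to 149, 687 and 748 FPKM in 3xD5720, the lowest calcitriol value in each tissue, against 267, 695 and 2068 in Vehicle_3. Deficient libraries ranged from 149 (minusD5718) to 301 in the duodenum and from 695 to 917 in the ileum. The 695 of Vehicle_3 was thus the lowest deficient value of the ileum. In the colon the calcitriol range was 748 to 3629 and the deficient range 1274 to 2981. Exocrine pancreas markers, led by the carboxypeptidase gene Cpa1, summed to 17827 FPKM in 3xD5720 of the colon and to 2561 in Vehicle_3, over ranges of 164 to 17827 in calcitriol and 222 to 3034 in deficient libraries. Villus and surface enterocyte markers had a median deviation of 0.03, 0.41 and 0.56 in 3xD5720 and of -0.39, -0.26 and -0.48 in Vehicle_3, on log2(FPKM + 1). Their summed FPKM was 42751, 16295 and 5948 in 3xD5720 and 31941, 26374 and 3954 in Vehicle_3. In the ileum the sum of 3xD5720 was thus the lowest of all libraries, against its positive median deviation, and in the colon it was the highest. Epithelial markers summed to 3701, 4277 and 5888 FPKM in 3xD5720, the lowest calcitriol value of each tissue, and to 5548, 8801 and 8033 in Vehicle_3. The crypt stem cell markers summed to 50.5, 62.3 and 71.2 FPKM in 3xD5720, and to 49.4, 75.3 and 99.3 in Vehicle_3, the highest of the deficient colon. The 7 stomach markers found in the tables summed to 7047 FPKM in 3xD5720 and 34.6 in Vehicle_3 of the duodenum. The ranges were 128 to 7734 in calcitriol and 34.6 to 10194 in deficient libraries. This sum followed the naming scheme, at 5577 to 10194 in the 4-digit and 34.6 to 205 in the serial libraries of the duodenum. It did not set 3xD5720 or Vehicle_3 apart from the others of their scheme. Gkn1, which defines these markers, was at 0 in libraries of both groups. The part of these markers in the division genes' values was not tested.

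The levels along the intestine were compared between libraries of the same name, in tables that the authors normalized separately, and carry no test. The median of the 39 genes was 0.39 higher in log2 in the ileum than in the duodenum, where the median of all genes was 0.15, and 17 of 39 were higher in each of the 7 pairs (27.4% of all genes) while 1, Rrm2, was lower in each (12.1%). In the colon it was 0.35 above the duodenum, near the 0.37 of all genes, with 17 of 39 higher in each of 8 pairs (45.7%) and 0 lower in each (11.7%). Between colon and ileum the median was -0.04, against 0.24 over all genes, with 3 of 39 (Plk1, Tyms and Dnmt1) higher in the colon in each of 7 pairs (35.1%) and 0 lower in each (10.3%).

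Plk1 and Rrm2 differed in opposite directions between the duodenum and the lower segments. Plk1 stood at 9.66 ± 1.56 FPKM in the duodenum (SD, n = 8), 14.8 ± 1.93 in the ileum (n = 7) and 30.8 ± 5.15 in the colon (n = 8), in ranges of 8.27 to 13, 13.2 to 17.5 and 26 to 41.5 that did not overlap. It was 1.55 higher in log2 in the colon than in the duodenum, in 8 of 8 pairs, and 1.02 higher than in the ileum, in 7 of 7. For Rrm2 the median log2 difference was -1.27 between colon and duodenum (positive in 1 of 8 pairs, that of Vehicle_3) and -1.13 between ileum and duodenum (0 of 7). Between colon and ileum it was -0.04 for Rrm2 (3 of 7), with no common direction. Mki67, by contrast, was higher in the colon than in the duodenum in 8 of 8 pairs (log2 0.76) and Pcna in 5 of 8 (0.09).

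Over both groups, Pcna led the 40 genes with 125 ± 13.4 FPKM in the duodenum, 114 ± 22.1 in the ileum and 130 ± 30.9 in the colon (SD, n = 8, 7 and 8). Birc5 followed with 35.4 ± 9.48, 42.2 ± 10.1 and 34.1 ± 18.2. Next came Rrm2 in the duodenum (30.4 ± 23.6), Top2a, the topoisomerase that untangles replicated DNA, in the ileum (31.2 ± 10.9) and Plk1 in the colon (30.8 ± 5.15). These do not stand apart from Birc5 beyond their spread. The lowest levels in every tissue were those of Aurka, Cdc6, Ccne2 and E2f1, the last at 1.75 ± 0.516, 2.63 ± 0.499 and 2.75 ± 1.32 FPKM.

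Nor was any of the surrounding genes of replication and mitosis called. Of 34 further DNA replication genes, 0 of 32 tested in the duodenum and 0 of 34 in the ileum and in the colon were called, with 27, 21 and 11 positive differences and medians of 0.10, 0.02 and -0.04. Those with the smallest p were Dut, which removes dUTP (12.5 ± 2.27 FPKM in calcitriol and 8.99 ± 2.76 in deficient duodenum, SD, n = 4 each; log2 0.46 ± 0.20), and Prim2, a primase subunit (0.25 ± 0.11). In the ileum they were the histone chaperone subunit Chaf1a (-0.43 ± 0.14) and Rpa2, which binds single-stranded DNA (-0.34 ± 0.15), and in the colon the replication kinase Cdc7 (-0.61 ± 0.28) and the clamp loader subunit Rfc1 (-0.43 ± 0.26). Of 36 further mitotic genes, 0 of 35 in the duodenum and 0 of 36 in the ileum and in the colon were called, with 29, 21 and 12 positive and medians of 0.10, 0.06 and -0.08. Ube2c, the ubiquitin-conjugating enzyme of the anaphase-promoting complex, stood at 66.7 ± 10.7 FPKM in calcitriol and 48.6 ± 11.3 in deficient duodenum (log2 0.46 ± 0.18, adjusted p = 0.503 by limma), and Cenpk, a kinetochore gene, differed by 0.53 ± 0.26. Racgap1, a cytokinesis gene, had a difference of -0.82 ± 0.25 in the ileum and 0.49 ± 0.30 in the colon. The condensin gene Smc2 had 0.68 ± 0.32 in the ileum and the kinetochore gene Spc24 -0.52 ± 0.36 in the colon.

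Of 14 genes of the E2F, MuvB and B-Myb regulators, 0 of 13 tested were called in each tissue, with 5, 9 and 6 positive differences. The shares over all genes were 0.0256%, 0% and 0% called and 51.9%, 51.7% and 47.3% positive. Lin54, the MuvB subunit that binds the CHR element, stood at 1.7 ± 0.374 FPKM in calcitriol and 3.3 ± 0.786 in deficient duodenum (SD, n = 4 each; log2 -0.66 ± 0.16, adjusted p = 0.483 by limma). It stood at 6.04 ± 3.14 (n = 4) in calcitriol and 3.4 ± 0.948 (n = 3) in deficient ileum, a difference of 0.61 ± 0.31 in the other direction, and Lin9, another MuvB subunit, differed by 0.44 ± 0.23. E2f3, an activator of S phase genes, differed by -0.30 ± 0.13 in the duodenum, and E2f2 by -0.52 ± 0.22 and E2f5 by 0.29 ± 0.15 in the colon. None of these passed over all genes, and the adjusted p of those in the colon were 0.846 and 0.863 by limma.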

How the data were processed

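Poly(A) RNA libraries of 3 tissues were compared, calcitriol against deficient, per tissue. The authors deposited FPKM for each gene symbol. Per the labels' protocols, mapping used CLC Genomics Workbench, and without giving roles, the submitters' processing notes list the mm9 build, DESeq2, DESeq 1.14.0 and kallisto 0.45.0. The 8-library ileum table repeats that of the duodenum (171528 of 171528 values equal), and its 7-library table was used instead, a departure from the planned 4 against 4. Columns named Vehicle were taken as deficient, the labels giving no further group. Column numbers are not tied to the labels' replicates, and neither sex nor age is known for a library. Where nothing says that libraries came from separate mice, p-values measure only the spread between them.

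The filter kept genes that reached 1 FPKM in 3 or more libraries of the tissue. Tests were two-sided, by lmFit and eBayes with trend of limma 3.58.1 in R 4.3.3, on log2(FPKM + 1), with Benjamini-Hochberg adjustment over all genes at 0.05. A pseudocount of 1 understates the change of low genes. Differences between tissues were contrasts in a fit of 6 group means. Whole reads, within 0.0001 of a whole number, were recovered from the FPKM steps for depth and for voom. The scripts were tested on simulated data. Gene positions are from gencode vM1 on NCBIM37, and promoters from RefSeq.

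The genes, their roles and the other lists were chosen with earlier results of these data known. By the rule for named genes, values in every library are given for the first gene of each role, for Pcna, Cdk1 and Ccnb1, for the 3 smallest p per tissue and the 2 smallest per pair of tissues, and 2 genes are named of each pathway list and tissue. The alternatives were the pseudocount, the filter, quantile normalization, the naming scheme, the 7-library tables, voom, the replicate block, each library left out, and, added after seeing the data, 3xD5720 and Vehicle_3 left out together.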

Additional observations from a re-analysis of the deposited data

Results flagged for a closer look

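Single libraries lay far from the others of their group in 14 of 95 groups of 4 libraries checked, by the gap to the nearest library as a share of the group's range, where chance gives about 1 in 20. In the calcitriol group all were 3xD5720. In the ileum Rrm2 stood at 65.6 FPKM there and at 7.83 to 11.5 in the other 3 libraries. In the colon Ccna2 stood at 36 against 17.3 to 17.6, and Mki67 at 34 against 13.3 to 16.2.

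In the deficient group all were Vehicle_3. In the duodenum Ccnb1 stood at 12.8 FPKM there and at 8.62 to 9.29 in the others, and the sum of the 39 tested genes at 553 against 410 to 431. In the colon Ccna2 stood at 47.3 (others 13.9 to 17.3), Kif11 at 23 (7.49 to 8.44), Mki67 at 38.7 (16.6 to 18.5), Pcna at 195 (104 to 115), Cdk1 at 28.4 (8.78 to 10.5), Ccnb1 at 36.5 (10.1 to 11.7), Rrm2 at 24.8 (6.84 to 8.42) and Aurkb at 19.7 (6.36 to 7.86). The summed FPKM of the 40 genes was 1124 against 446 to 525. These genes move together, so the counts are not independent.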

How the results depend on the processing

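No gene was called under any alternative in any tissue, nor for any pair of tissues. Of 819 values recomputed, 762 counted as unchanged. For the difference of a gene this meant the same direction and the same side of the threshold. A median counted as unchanged if it moved by less than the SD of the library medians (0.15, 0.26 and 0.49 in the 3 tissues). Under that rule its sign could turn, as in the colon from -0.15 to 0.17 without Vehicle_3. With naming scheme as a covariate, the median log2 difference was 0.14 in the duodenum, -0.21 in the ileum, where this compares 3xD_1 with the deficient libraries, and 0.03 in the colon. With that term the sign of these differences turned: in the duodenum Dnmt1 0.03 and Uhrf1 0.12; in the ileum Ccna2 -0.14, Plk1 -0.06, Kif11 -0.22, Mki67 -0.20, Cdk1 -0.18, Ccnb1 -0.13, Rrm2 -0.15, Mcm7 -0.03 and Prc1 -0.20; in the colon Mcm2 0.08, Ccne1 0.04, Pcna 0.17, Cdk1 0.09, Cdt1 0.06 and Aurka 0.10. It also turned with quantile normalization (duodenum Pcna -0.02, colon Cdk1 0.01), with the 7-library tables (duodenum Mcm2 -0.02 and Ccne1 -0.10, colon Ccna2 -0.05) and with voom (duodenum Ccne1 -0.04 and Kif11 -0.02, colon Ccna2 -0.02 and Aurka 0.17). The cause was not tested.

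Leaving out each library in turn, the duodenal median ran from 0.01 to 0.16, the ileal one from -0.06 to 0.21 and the colonic one from -0.31 to 0.17. Signs turned in the duodenum for Mcm2 (-0.02 to 0.16), Ccne1 (-0.10 to 0.25) and Kif11 (-0.04 to 0.10), and in the ileum for Ccne1 (-0.20 to 0.21) and Aurkb (-0.18 to 0.20). In the colon they turned for Mcm2 (-0.38 to 0.02), Tyms (-0.04 to 0.21), Ccne1 (-0.39 to 0.12), Ccna2 (-0.22 to 0.42), Kif11 (-0.50 to 0.15), Mki67 (-0.48 to 0.08), Pcna (-0.11 to 0.19), Cdk1 (-0.18 to 0.35), Ccnb1 (-0.46 to 0.23), Rrm2 (-0.44 to 0.18), Aurkb (-0.37 to 0.21) and Aurka (-0.65 to 0.04).

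Libraries of the same name deviated together, with a correlation over 0.1, in 7 of 8 pairs of duodenum and colon (lowest -0.05), 6 of 7 of duodenum and ileum (lowest 0.10) and 6 of 7 of ileum and colon (lowest 0.02). The highest correlations were 0.44, 0.59 and 0.41, in the same order. Pairs of different names were not correlated, so these values do not show that the shared name carries the correlation. The labels do not tie a shared number to a single mouse, so the main fit took the libraries as independent. With the number as a replicate block, 0 of 39 genes were called for any pair of tissues, where 0% of all genes were for duodenum and colon and 0.0089% for each pair with the ileum. The median over the 39 genes was then 0.21 for duodenum minus colon, 0.36 for ileum minus colon and -0.07 for duodenum minus ileum. A comparison within the 4-digit libraries of the ileum was not possible because they hold no deficient one. With 3xD5720 and Vehicle_3 both left out, chosen after seeing the data, the medians were 0.14, 0.09 and 0.05. Low genes such as Aurka and Ccne2 have values near 0 in some libraries, and the reason was not tested. In the ileum Aurka had 0 recovered reads in 3xD5711 and 61 in 3xD5734, libraries of 12910774 and 14471003 recovered reads.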

Other observations

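Inhibitors of the cell cycle were not called either. Of 17 such genes, 0 of 16 tested in the duodenum, 0 of 17 in the ileum and 0 of 16 in the colon passed over all genes by limma, with 11, 10 and 9 positive differences and medians of 0.05, 0.08 and 0.04. Of all genes, 0.0256%, 0% and 0% passed, and 51.9%, 51.7% and 47.3% were positive. At an unadjusted p under 0.05, 2 were higher in the duodenum (4.03% of all genes), 1 in the ileum (3.09%) and 1 in the colon (2.92%), and 0 were lower (5.37%, 2.74% and 2.93%). Cdkn1a, the inhibitor p21 and a target of the vitamin D receptor in cultured cells, stood at 136 ± 25.1 FPKM in calcitriol and 101 ± 19.5 in deficient duodenum (SD, n = 4 each; log2 0.43 ± 0.18, adjusted p = 0.526 by limma). Cdkn2c, an inhibitor of Cdk4 and Cdk6, stood at 3.68 ± 0.924 FPKM in calcitriol and 2.43 ± 0.637 in deficient duodenum (0.44 ± 0.18). In the ileum Ccng1, a p53 target, stood at 32.5 ± 3.97 FPKM in calcitriol (n = 4) and 25.5 ± 3.21 in deficient libraries (n = 3), and Cdkn2b, another inhibitor of Cdk4 and Cdk6, at 88.5 ± 28.4 in calcitriol and 129 ± 5.34 in deficient ones (-0.60 ± 0.27). In the colon Gadd45a, a stress-induced growth arrest gene, stood at 67.3 ± 9.78 FPKM in calcitriol and 48.1 ± 15.4 in deficient libraries (SD, n = 4 each; 0.52 ± 0.22, adjusted p = 0.846 by limma) and Cdkn1c, the inhibitor p57, at 9.14 ± 2.41 in calcitriol and 6.47 ± 1.99 in deficient ones (0.45 ± 0.24).

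Markers of crypt stem cells and of villus or surface enterocytes were described beside these. Of the crypt markers, 0 of 10 tested were called in the duodenum, 0 of 10 in the ileum and 0 of 11 in the colon, with 7, 3 and 2 positive differences and medians of 0.12, -0.12 and -0.18. Of the enterocyte markers, 0 of 17 were called in each tissue, with 11 positive in each and medians of 0.12, 0.15 and 0.15. For both lists the shares over all genes were 0.0256%, 0% and 0% called and 51.9%, 51.7% and 47.3% positive.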
